A study of Homo sapiens with 33 samples.

Results

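The oxidative phosphorylation subunits are the nuclear-encoded proteins of the 5 enzyme complexes in the inner mitochondrial membrane. They were taken as every probe set whose single gene symbol in the platform annotation begins NDUFA, NDUFB, NDUFC, NDUFS, NDUFV, UQCR, COX4I, COX5, COX6, COX7, COX8 or ATP5, or is SDHA, SDHB, SDHC, SDHD or CYC1. Assembly factors named NDUFAF, the inhibitor ATP5IF1, pseudogenes and an antisense RNA were left out. This gave 99 of 22215 probe sets, for 66 genes: 28 of complex I, 3 of complex II, 7 of complex III, 13 of complex IV and 15 of complex V. Of the 66 genes, 45 had 1 probe set and 21 had several. Another 9 probe sets carry a member's name or its readthrough transcript's together with other symbols, among them those of NDUFS5, NDUFS8, NDUFC2, UQCRH and ATP5MF, and were not members. The 13 subunits encoded by mitochondrial DNA were not measured by symbol on this array, so nothing here describes them.

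Complex I, or NADH dehydrogenase, and complex II, or succinate dehydrogenase, pass electrons to ubiquinone. Complex III passes them to cytochrome c, and complex IV uses them to reduce oxygen to water. Complexes I, III and IV pump protons across the membrane, and complex V, the ATP synthase, lets them flow back through its ring of c subunits and makes ATP. Most subunits are built into the complexes in fixed ratios, and transcription factors of the NRF1, ETS (GABP) and YY1 families are known to act on many of their promoters. MYC and the PGC-1 coactivators are known to raise mitochondrial gene expression in proliferating and oxidative cells, which makes these genes of interest in lymphoma cells that depend on a kinase.

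Total RNA was measured on Affymetrix HG-U133A arrays in TS, a subclone of Sup-M2, and in Su-DHL1, both ALK-positive anaplastic large cell lymphoma lines, on 33 arrays in 11 groups of 3. In the hairpin experiment, cells carried a doxycycline-regulated lentiviral short hairpin (pLVTH-GFP-shRNA) together with the repressor vector pLV-DsRed-tTRKRAB, and were populations sorted for inducible GFP rather than single clones. TS cells with the ALK hairpin A5 were grown with 1 microg/ml doxycycline or without it for 84 h and, in a separate pair of groups, for 72 h. Su-DHL1 cells with A5 were grown with or without doxycycline for 72 h, and TS cells with the mutated hairpin A5M were grown with doxycycline for 84 h. In the 6 h experiment, TS cells received the pyrrolocarbazole ALK inhibitors A2 or A3 or compound A1, all at 300 nM, or no compound (U). In the series' design A1 is a mock compound and U a diluent control, whereas the descriptions of the samples have A1 as an inhibitor of ALK and U as untreated. A5-induced and uninduced groups differ in doxycycline as well as in the hairpin, and only the A5M group shares the drug with the A5 group. The labels do not tell whether a group's 3 arrays stem from separately grown cells. The spread behind each p-value is thus that of the arrays at hand and may be technical.

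Values are MAS5 signals, which the deposited table holds scaled to a 2% trimmed mean between 200.06 and 200.08 on each array. The median signal per array lay between 54.8 and 69.3. Differences are log2 fold changes of (signal + 11) from limma, fitted over all 9101 genes of the hairpin experiment and all 8594 genes of the 6 h experiment, with 1 probe set a gene. A gene was called where the p-value, adjusted by Benjamini-Hochberg over all genes tested, was below 0.05. Signals of different probe sets depend on the probes and are not set against each other. ALK itself, the target of the hairpin, read 201 to 289 in A5-induced TS cells at 84 h, 1927 to 2100 in uninduced cells and 1652 to 1739 with A5M. At 72 h it read 287 to 389 against 1806 to 1844 in TS, and 629 to 651 against 2745 to 3184 in Su-DHL1. CD30 (TNFRSF8), CD3D and granzyme B (GZMB) were above the 40th percentile of the array's signals on all 33 arrays, and CD14, LYZ, CD79B, EPCAM, KRT19 and CDH1 on 0. Other myeloid, B-cell and epithelial markers were above this level on some or all arrays. These were CSF1R on 33, CD22 on 32, KRT8 on 26, KRT18 on 25, CD79A on 11, MS4A1 on 9 and MPO on 8. The T-cell marker CD3G was above the 40th percentile on only 2 arrays, so the lines carry part of the T-cell list.

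Of the 66 genes, 65 were tested in both experiments. COX7A1, the muscle and heart form of a complex IV subunit, did not pass the filter on low signals and read between 2.3 and 26.9 on all arrays. Its relative COX6A2, another muscle form, passed with signals of only 42.8 to 116. Each of the other members had a median signal above that range, from 242 for NDUFB7 upward.

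With the ALK hairpin, most subunit genes that passed the test rose, by modest amounts, and a smaller group of complex I subunits and a single complex V gene fell. In the average of the 3 hairpin settings (TS at 84 h, TS at 72 h, Su-DHL1 at 72 h), 31 of 65 members rose and 6 fell. Complex I holds 28 of the 65 tested members and 5 of the 6 that fell. Among all 9101 genes 29.1% rose and 21.7% fell in the same average. The members' median change was 0.14, with quartiles of -0.00 and 0.24, beside a median of 0.07 and quartiles of -0.17 and 0.30 over all genes. With the probe set used for each gene, the members lay between -0.51 and 0.45. All genes lay between -3.55 and 4.57, but the ends of 9101 genes lie further out by number alone. Among probe sets not used, one of ATP5MG was called higher at 0.81 ± 0.09, where the gene's others had 0.15 to 0.19. A further one of COX4I1 had 0.56 ± 0.23. In all 3 settings alike, 38 of the 65 members lay above 0 and 9 below, beside 38.1% and 25.3% of all genes.

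**Figure D1:**
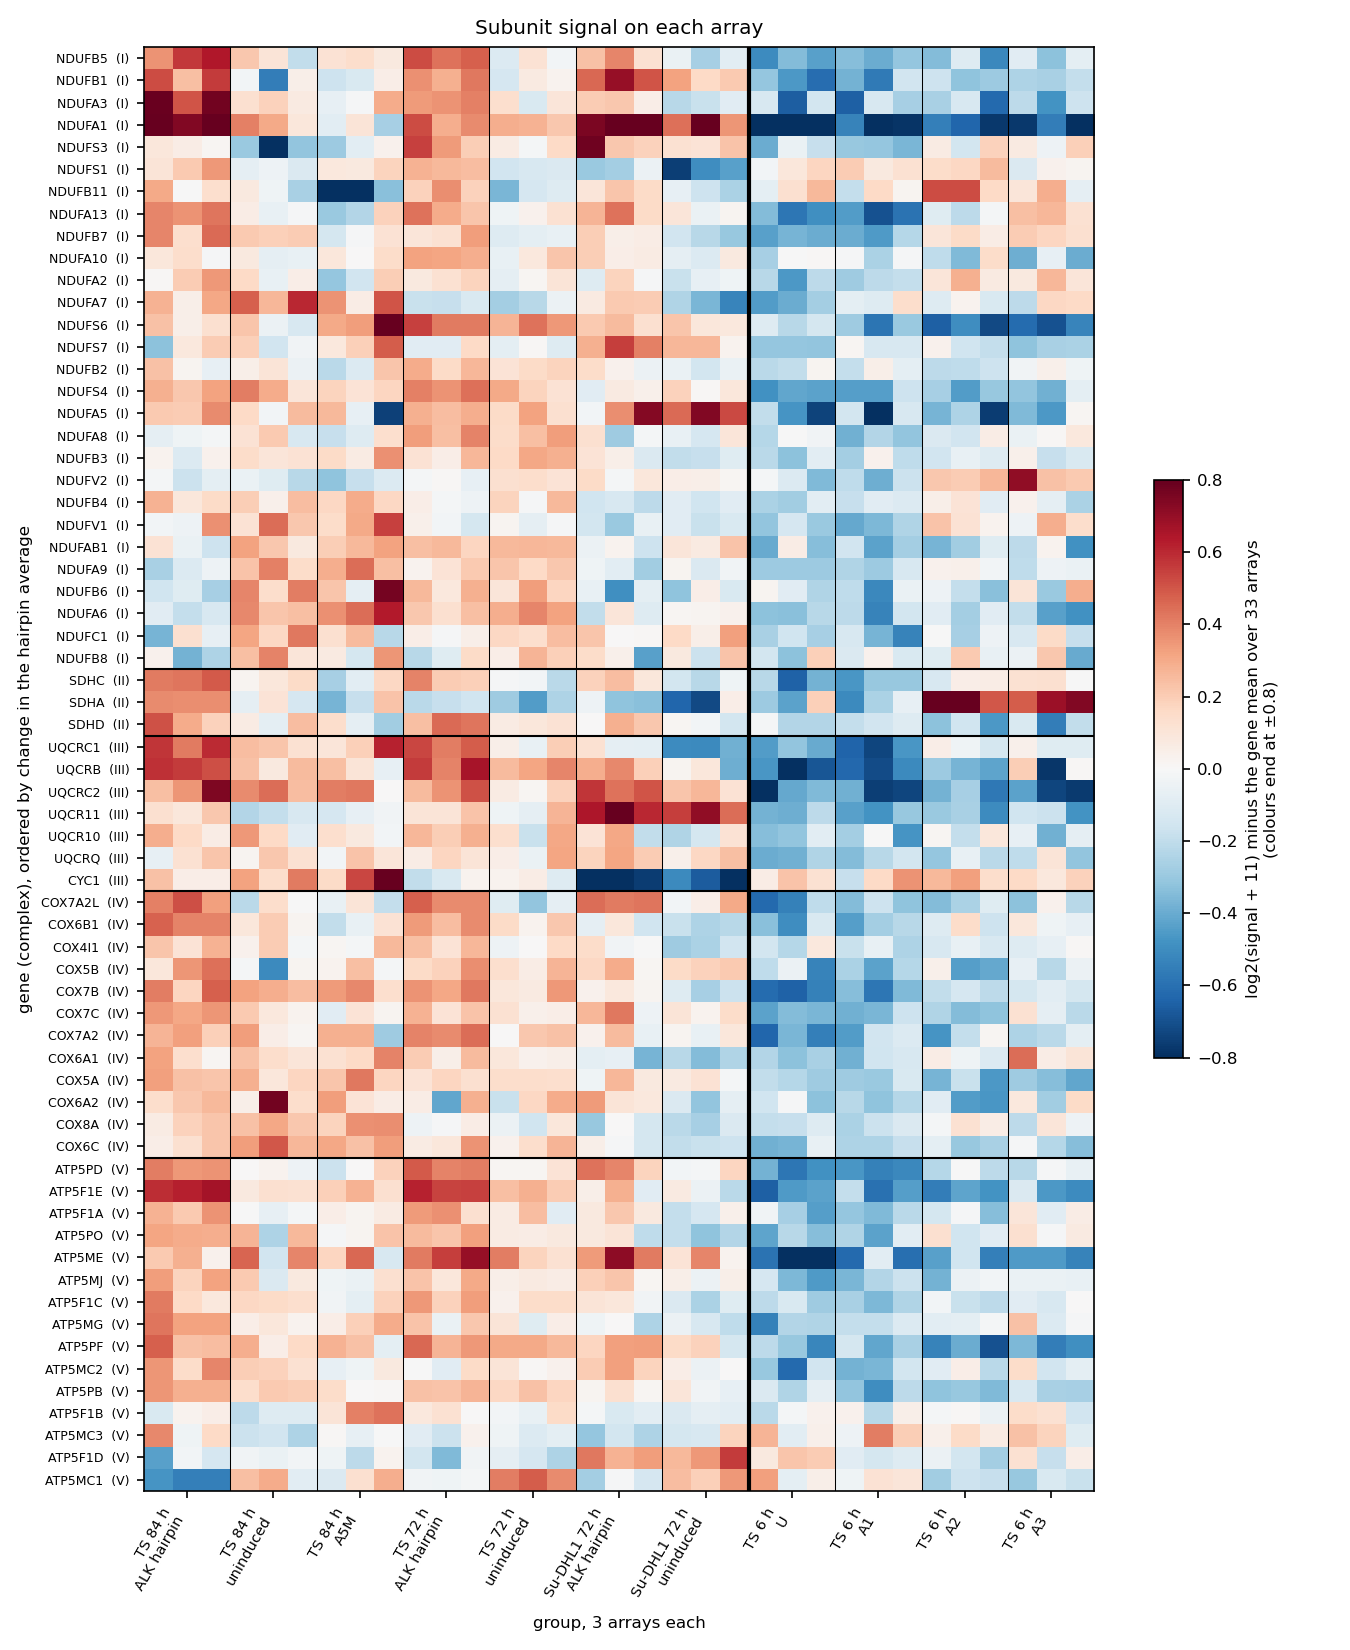
Signal of the 65 tested subunit genes on each of the 33 arrays, as log2(signal + 11) minus the gene's mean over all arrays (colour), with genes in rows by complex and arrays in columns by group. The thick line separates the hairpin experiment from the 6 h experiment, which were not compared with each other. ATP5MC1, in the last row, is lower in each ALK hairpin group than in its uninduced group, and SDHA, among the 3 complex II rows, is high with A2 and A3.

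In each separate setting more members rose than fell, but the balance differed. In TS at 84 h, 21 members rose and 8 fell, beside 21.8% and 18.8% of all genes, with a median of 0.12. In TS at 72 h, 12 members rose and 1 fell, beside 18.9% and 15.2%, with a median of 0.11. The rises in that setting were thus close to the share of all genes. In Su-DHL1 at 72 h, 13 rose and 1 fell, beside 13.9% and 10.7%, with a median of 0.14. The Su-DHL1 count depends on single arrays. In this line 6 members were called without A5-induced replicate 2, uninduced replicate 1 or uninduced replicate 2, and 7 without induced replicate 1. Without induced replicate 3, 15 members were called. Quantile normalization raised the calls to 22 in TS at 72 h and 25 in Su-DHL1. The shares of all genes called in these alternative fits are not given here, so their counts are no result about the subunits. The 8 that fell at 84 h were ATP5MC1, COX6C and the complex I subunits NDUFB6, NDUFB8, NDUFA6, NDUFA9, NDUFC1 and NDUFAB1, and of these ATP5MC1 alone also passed at 72 h, in both lines. Limma called 0 members for a different response between the lines at 72 h, where 2.89% of all genes were called and 4 members had an unadjusted p under 0.05. It called 0 for a different response between 84 and 72 h in TS, where 1.27% of all genes were called and 6 members had an unadjusted p under 0.05. The largest difference between lines was that of NDUFA7, a complex I accessory subunit, at 0.52 (95% interval 0.18 to 0.86, limma adjusted p = 0.0906). The largest between times was that of NDUFB6 at -0.49 (-0.94 to -0.05, adjusted p = 0.397). The calls at 84 h in TS are therefore not shown to be particular to that time.

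The 3' to 5' signal ratio of the ACTB control probe sets, a measure of RNA and label integrity, moved with these groups. It was 1.27 ± 0.023 (SD, n = 3) in A5-induced and 1.54 ± 0.048 in uninduced TS cells at 84 h, and 1.32 ± 0.047 against 1.59 ± 0.11 at 72 h. In Su-DHL1 it was 1.36 ± 0.078 against 1.39 ± 0.034, and in A5M cells 1.52 ± 0.077. With the ratio as a covariate, 18 members rose and 2 fell in the average, and the median was 0.17. The same fit called 14 members at 84 h and 5 at 72 h in TS, and 15 in Su-DHL1. On the TS arrays the ratio ran from 1.25 to 1.29 with A5 and 1.48 to 1.58 without at 84 h. At 72 h it ran from 1.28 to 1.37 against 1.53 to 1.72, so ratio and induction cannot be told apart in TS. In Su-DHL1 the ranges overlapped, at 1.29 to 1.44 against 1.36 to 1.43. The shares of all genes called in this fit are not given here, and the part of the ratio in the calls was not tested.

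**Figure D2:**
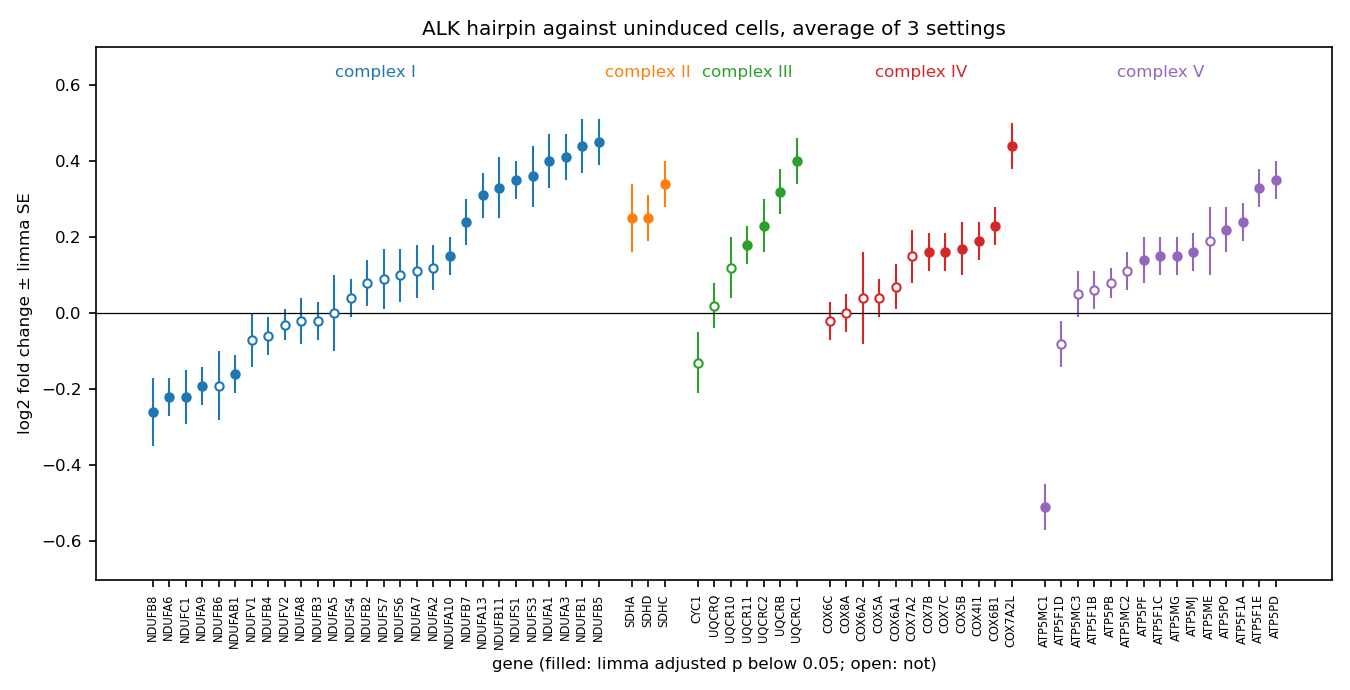
Change of each of the 65 tested subunit genes with the ALK hairpin, as the log2 fold change averaged over the 3 settings (points) with its limma standard error (bars), by complex. Filled points passed the test. Complex I holds 28 of the 65 genes and 5 of the 6 that fell, and ATP5MC1 of complex V has the lowest value, -0.51.

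In complex I, 10 of 28 subunits rose and 5 fell in the average, with a median of 0.09. Of the core subunits, some were called higher and others did not pass. NDUFS1, which holds several of the iron-sulfur clusters, read 695, 750 and 823 in A5-induced TS cells at 84 h and 596, 613 and 628 in uninduced cells. At 72 h it read 767, 774 and 784 against 581, 589 and 596 in TS, and 524, 534 and 626 against 379, 454 and 475 in Su-DHL1. The A5 arrays lay above the uninduced ones in each setting, and the average change was 0.35 ± 0.05 (SE, limma adjusted p = 6.28e-06). NDUFS3, another core subunit, rose by 0.36 ± 0.08 (adjusted p = 7.28e-04), while NDUFV1 and NDUFV2, which bind NADH and pass on its electrons, had changes of -0.07 and -0.03 and did not pass.

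Among the accessory subunits of complex I, NDUFB5 had the largest rise. It read 2232, 2584 and 2714 with A5 and 1518, 1870 and 2018 without at 84 h, and 2360, 2431 and 2505 against 1612, 1714 and 1890 at 72 h in TS. In Su-DHL1 it read 1890, 2052 and 2279 against 1445, 1641 and 1680. No A5 array overlapped its uninduced group, and the average change was 0.45 (95% interval 0.33 to 0.57, adjusted p = 6.51e-07). NDUFB1 rose by 0.44 ± 0.07, NDUFA3 by 0.41 ± 0.06 and NDUFA1, an X-linked subunit needed for assembly, by 0.40 ± 0.07. At 84 h NDUFA1 read 2547 to 3191 with A5, 1619 to 2017 without and 1263 to 1637 with A5M.

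The complex I subunits that fell were NDUFB8 (-0.26 ± 0.09), NDUFC1 (-0.22 ± 0.07), NDUFA6 (-0.22 ± 0.05), NDUFA9 (-0.19 ± 0.05) and NDUFAB1 (-0.16 ± 0.05). NDUFAB1 is the mitochondrial acyl carrier protein, and NDUFA9 sits where the matrix arm meets the membrane arm. NDUFA9 read 1005, 1119 and 1173 with A5 and 1336, 1414 and 1602 without at 84 h. At 72 h its groups overlapped in TS, at 1231, 1303 and 1400 against 1349, 1403 and 1409, and in Su-DHL1, at 994, 1140 and 1179 against 1113, 1184 and 1225. NDUFA6 has a second probe set that did not fall (0.12 ± 0.07, adjusted p = 0.176, over probe sets), so its direction depends on the probe set used.

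All 3 complex II genes among the members, SDHA, SDHC and SDHD, rose in the average, with a median of 0.25. SDHB, also named in the selection rule, was not among the members, so nothing here describes it. SDHC, a membrane anchor that helps bind ubiquinone, read 1621, 1632 and 1708 with A5 against 1229, 1289 and 1351 without at 84 h. It read 1386, 1399 and 1603 against 1042, 1196 and 1206 at 72 h in TS, and 1290, 1380 and 1444 against 1038, 1097 and 1184 in Su-DHL1. The groups did not overlap in any setting, the average change was 0.34 ± 0.06 (adjusted p = 2.02e-05), and all 4 of its probe sets rose, by 0.28 to 0.36. SDHD, the other anchor, rose by 0.25 ± 0.06 (adjusted p = 0.00204). SDHA, the flavoprotein that oxidises succinate, rose by 0.25 ± 0.09 (adjusted p = 0.0228), and alone only at 84 h, where the A5 arrays read 946, 946 and 948 against 662, 692 and 786. The probe set for its pseudogene copies SDHAP1 and SDHAP2 read 1333 to 1530 with A5 against 1159 to 1260 without at 84 h. It read 1204 to 1267 against 1040 to 1182 at 72 h in TS, and 1035 to 1264 against 852 to 929 in Su-DHL1. SDHA and its copies therefore cannot be told apart with the hairpin.

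In complex III, 4 of 7 members rose and 0 fell, with a median of 0.18 and 4 at an unadjusted p under 0.05 by limma. UQCRC1, a core subunit on the matrix side, read 2867, 3198 and 3248 with A5 against 2341, 2508 and 2553 without at 84 h. It read 2859, 3010 and 3120 against 2061, 2218 and 2464 at 72 h in TS, and 2033, 2044 and 2335 against 1505, 1512 and 1640 in Su-DHL1. It was higher on all 9 A5 arrays than on its uninduced arrays, by 0.40 ± 0.06 in the average (adjusted p = 5.65e-06). UQCRB, which takes part in ubiquinone binding, rose by 0.32 ± 0.06, UQCRC2 by 0.23 ± 0.07 and UQCR11 by 0.18 ± 0.05. CYC1, the cytochrome c1 that hands electrons to cytochrome c, had a change of -0.13 ± 0.08 and did not pass (adjusted p = 0.201).

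In complex IV, 6 of 12 members tested rose and 0 fell, with a median of 0.15 and 7 at an unadjusted p under 0.05. COX7A2L, a COX7A relative known to join complexes III and IV into supercomplexes, had the largest rise. It read 1763, 1856 and 2010 with A5 against 1207, 1401 and 1547 without at 84 h, and 1827, 1828 and 1955 against 1123, 1308 and 1336 at 72 h in TS. In Su-DHL1 it read 1878, 1891 and 1916 against 1384, 1457 and 1737, so the groups did not overlap in any setting. The average change was 0.44 ± 0.06 (adjusted p = 8.31e-07). COX6B1 rose by 0.23 ± 0.05 and COX4I1, the common form of the subunit that senses ATP, by 0.19 ± 0.05, with its 3 probe sets at 0.19 to 0.56. COX5B was called higher at 0.17 ± 0.07 (adjusted p = 0.0415), but 1 of its 4 probe sets was called lower at -0.44 ± 0.13 and the other 3 higher at 0.17 to 0.28, so no direction is given for it. COX5A, COX6C and COX8A had changes of 0.04, -0.02 and -0.00.

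In complex V, 8 of 15 members rose and 1 fell, with a median of 0.15. ATP5PD, a subunit of the peripheral stalk, read 3609, 3653 and 3785 with A5 against 2765, 2842 and 2893 without at 84 h. It read 3750, 3782 and 4000 against 2868, 2870 and 3060 at 72 h in TS, and 3216, 3726 and 3838 against 2794, 2813 and 3205 in Su-DHL1. No A5 array overlapped its uninduced group, and the average change was 0.35 ± 0.05 (adjusted p = 2.74e-06). ATP5F1E, the epsilon subunit of the rotor, rose by 0.33 ± 0.05, the catalytic-head subunit ATP5F1A by 0.24 ± 0.05 and ATP5PO of the stalk by 0.22 ± 0.06, whose other probe set had -0.08 and did not pass. The beta subunit ATP5F1B, which holds the catalytic sites, had a change of 0.06 ± 0.05 and did not pass.

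ATP5MC1, 1 of 3 genes that encode the same mature c subunit of the membrane ring, fell in every setting. It read 801, 803 and 846 with A5 against 1109, 1390 and 1449 without at 84 h, and 1150, 1154 and 1161 against 1530, 1565 and 1653 at 72 h in TS. In Su-DHL1 it read 971, 1071 and 1171 against 1344, 1399 and 1502. The mean left was 62%, 73% and 75.7% of the uninduced mean, and the average change was -0.51 ± 0.06 (adjusted p = 1.14e-07). With A5M it read 1085, 1284 and 1439, which overlapped the uninduced cells and lay above the A5 arrays. The other 2 c-subunit genes did not pass in the average. ATP5MC2 had an average change of 0.11 ± 0.05 (adjusted p = 0.0564), and ATP5MC3 of 0.05 ± 0.06 (adjusted p = 0.478). In Su-DHL1 ATP5MC2 rose (0.23 ± 0.08, adjusted p = 0.0407). ATP5MC3 was higher with A5 at 84 h (0.36, adjusted p = 0.00421), where it read 3626, 4138 and 4843 against 3118, 3290 and 3336. In Su-DHL1 its A5 arrays lay below the uninduced ones, at 2997, 3121 and 3342 against 3357, 3390 and 4197, but the change did not pass (-0.20 ± 0.10, adjusted p = 0.142). Both of these shifts belong to 1 of the 2 probe sets of ATP5MC3. The other stayed at 103% of the uninduced mean in TS at 84 h, 101% at 72 h and 104% in Su-DHL1, so no direction is given for the gene.

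**Figure D3:**
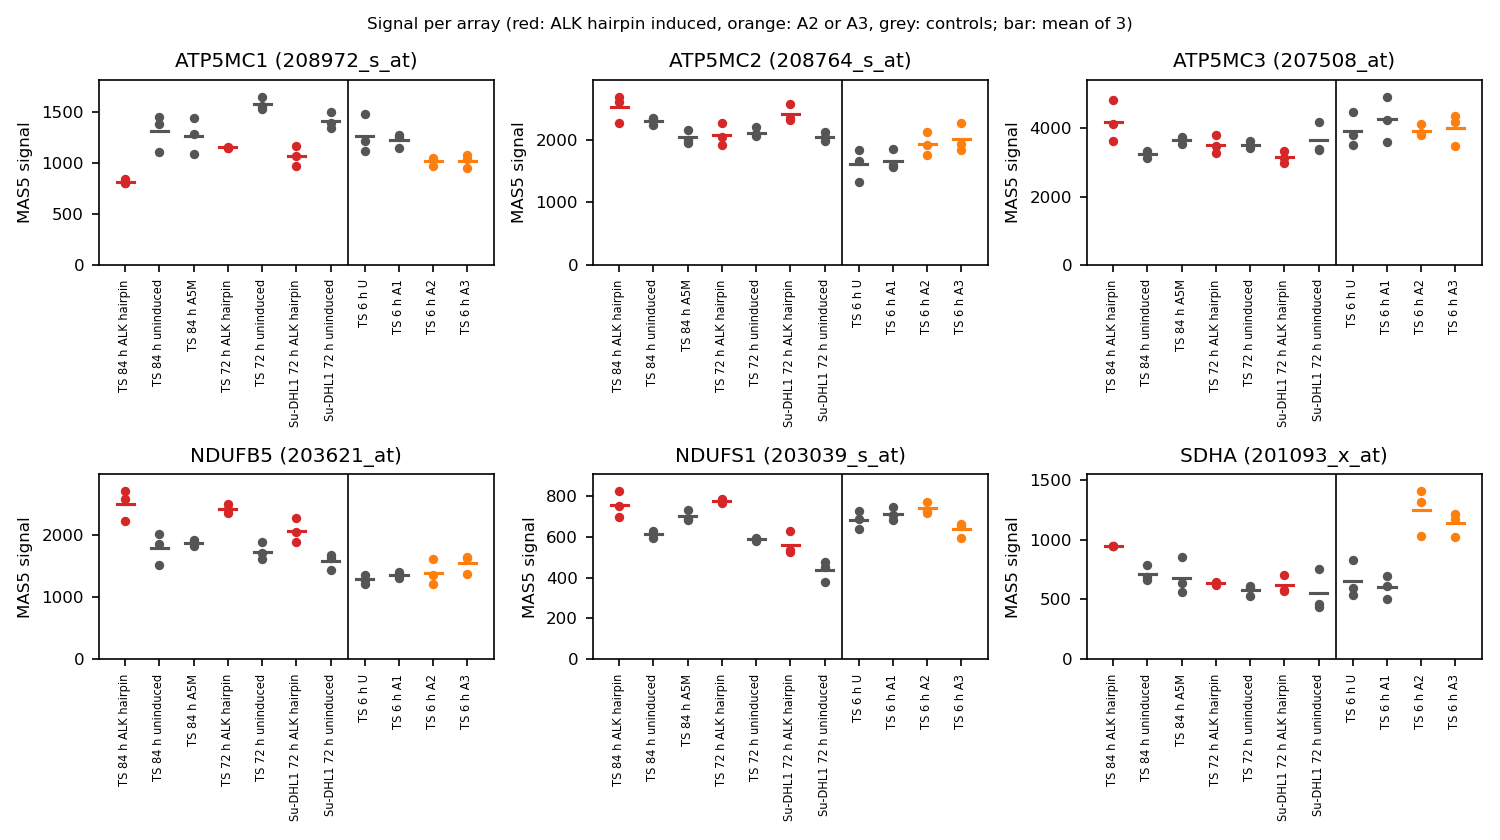
MAS5 signal on each array (points) and the mean of 3 (bars) in the 11 groups for the 3 genes of the c subunit (top) and for NDUFB5, NDUFS1 and SDHA (bottom), on a linear axis from 0. ATP5MC1 is lower in each ALK hairpin group than in its uninduced group, the probe sets plotted for ATP5MC2 and ATP5MC3 lie higher, level or lower by setting (the other ATP5MC3 probe set, not plotted, is level at 101% to 104%), and SDHA reads 1021 to 1408 with A2 or A3 against 508 to 831 in the 6 h controls.

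The members called higher in all 3 settings were NDUFA3, NDUFB5 and NDUFS1 of complex I, SDHC, UQCRC1, COX7A2L and ATP5PD. ATP5MC1 was the only member called lower in all 3. The shares of all genes called in all 3 settings are not given here, so these names are a list and not a result about the complexes.

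The A5M group shares doxycycline and 84 h with the A5 group and differs in the hairpin and in the sorted cell population that carries it. Against A5M, 22 members were higher and 8 lower with A5, beside 23.3% and 20% of all genes, with a median of 0.17. NDUFA1 (0.96 ± 0.13), NDUFB11 (0.87 ± 0.13), NDUFA3 (0.61 ± 0.10), NDUFB1 (0.52 ± 0.12) and NDUFA13 (0.51 ± 0.10) differed most upward. NDUFA6 (-0.62 ± 0.08), ATP5MC1 (-0.62 ± 0.10), NDUFB6 (-0.48 ± 0.15), NDUFA9 (-0.46 ± 0.09) and CYC1 (-0.45 ± 0.14) differed most downward. This comparison shares the A5 arrays with that against uninduced cells, so the counts are not independent. A5M cells with doxycycline against A5 cells without it gave 3 calls, in either direction, beside 6.99% of all genes. No uninduced A5M group was measured, so hairpin, cell population and doxycycline cannot be told apart in that comparison. NDUFS6 was higher with A5M (0.48 ± 0.11) and so was ATP5F1B (0.45 ± 0.09), while NDUFB11 was lower (-0.65 ± 0.13), at 312, 340 and 495 against 522, 610 and 661. The value of NDUFB11 against A5M thus joins a low A5M group to A5 arrays of 623, 686 and 775.

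Before induction the lines themselves differed. Uninduced Su-DHL1 cells had 15 members lower and 2 higher than uninduced TS cells at 72 h, beside 10.4% lower and 10.8% higher of all genes, with a median of -0.14 beside 0.02 over all genes. Complexes III and IV held 8 of the 15. CYC1 read 1144, 1350 and 1500 in Su-DHL1 and 1994, 2183 and 2239 in TS, a difference of -0.69 ± 0.14 (limma adjusted p = 7.52e-04). UQCRC1 (-0.53 ± 0.11), NDUFS1 (-0.43 ± 0.09), NDUFB3 (-0.41 ± 0.09) and UQCRB (-0.41 ± 0.11) were also lower. ATP5F1D, the delta subunit of the rotor, was higher (0.54 ± 0.11), as was UQCR11 (0.51 ± 0.10), at 1554, 1674 and 1869 against 1082, 1109 and 1377. The ACTB ratio was lower in these Su-DHL1 cells, 1.39 against 1.59, and with it as a covariate 7 members were called, 2 higher and 5 lower. Without TS uninduced replicate 3, 11 members were called. The shares of all genes called in these alternative fits are not given here. Line, passage, culture and the ACTB ratio, whose ranges did not overlap (1.36 to 1.43 against 1.53 to 1.72), cannot be told apart in this comparison.

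After 6 h with the inhibitors, the members that passed against A1 all rose, and SDHA had the largest change. Against A1, 11 members rose and 0 fell with A2, beside 19.1% and 14.3% of all genes, and 14 rose and 0 fell with A3, beside 18.5% and 14.2%. By limma, 18 and 21 members respectively had an unadjusted p under 0.05 in either direction. The members' median change was 0.09 with A2 and 0.12 with A3, beside 0.02 and 0.04 over all genes. Against U, A2 gave 12 higher and 3 lower, beside 19.7% and 15.4%, and A3 gave 17 higher and 1 lower, beside 18.8% and 14.9%. The shares that rose against A1 were thus close to those of all genes, and the shares that fell were below them. Without A2 replicate 2, 7 members were called against A1, and without U replicate 2, 9 were called with A2 against U. The shares of all genes without these arrays are not given here.

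Of the probe sets not chosen for a gene, 1 of ATP5MG (-0.45) and 1 of COX7C (-0.35) were called lower with A2 against A1, and 1 of COX4I1 with A3 (-1.24), while the others of those genes did not pass.

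Per complex, the rises with A2 against A1 were 7 of 28 in complex I, 2 of 3 in complex II, 1 of 7 in complex III, 0 of 12 in complex IV and 1 of 15 in complex V. For the 0 in complex IV, 3 members had an unadjusted p under 0.05 by limma. With A3 they were 7, 2, 1, 2 and 2. Against A1, 10 members were called higher with both inhibitors, beside 15.1% of all genes tested in both experiments. They were NDUFA2, NDUFA13, NDUFB7, NDUFS3, NDUFV1, NDUFV2, SDHA, SDHC, UQCRC1 and ATP5PD. All of these except NDUFS3 were also called higher with both inhibitors against U.

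SDHA read 1031, 1319 and 1408 with A2 and 1021, 1175 and 1221 with A3. It read 508, 609 and 695 with A1 and 537, 594 and 831 in U, so neither inhibitor group overlapped a control group. The change was 1.04 with A2 (95% interval 0.69 to 1.38, adjusted p = 9.81e-05) and 0.91 with A3 (0.57 to 1.25, adjusted p = 3.45e-04) against A1. SDHA has 1 probe set, of the kind that can bind related sequences, and the genome holds transcribed pseudogene copies of SDHA. The array's probe set for the copies SDHAP1 and SDHAP2 read 1208 to 1250 with A2, 1243 to 1391 with A3, 801 to 910 with A1 and 770 to 1025 in U. The gene and its copies therefore cannot be told apart in these values. SDHC read 1111, 1261 and 1262 with A2, 1213, 1320 and 1328 with A3 and 874, 980 and 983 with A1. Its call rests on the probe set: over probe sets, 2 of the 4 passed with each inhibitor (0.35 and 0.66 with A2, 0.44 and 0.72 with A3), 1 did not (0.30 and 0.31, adjusted p = 0.129 and 0.106) and 1 was level (-0.02 and 0.04). SDHD had a change of -0.17 with A2 and -0.14 with A3 and did not pass.

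In complex I both subunits of the NADH-oxidising pair rose with the inhibitors. NDUFV1 read 1045, 1110 and 1202 with A2, 998, 1130 and 1256 with A3, 770, 797 and 866 with A1 and 823, 834 and 934 in U, with changes of 0.46 ± 0.11 and 0.47 ± 0.11 against A1. NDUFV2 read 1520, 1534 and 1588 with A2, 1526, 1549 and 2159 with A3 and 1002, 1141 and 1167 with A1, with changes of 0.49 ± 0.13 and 0.64 ± 0.13. NDUFA13, also known as GRIM-19, changed by 0.47 ± 0.11 with A2 and 0.79 ± 0.11 with A3, and NDUFB7 by 0.46 ± 0.11 and 0.53 ± 0.11. UQCRC1 of complex III read 1944, 2098 and 2231 with A2, 2005, 2008 and 2208 with A3 and 1288, 1371 and 1554 with A1, with changes of 0.57 ± 0.11 and 0.56 ± 0.11. NDUFA2 was called higher as well (0.38 with each inhibitor), and its other probe set gave 0.14 and 0.19, which did not pass, and -0.02 with A2 against U. Whether these responses differ from those to the hairpin was not tested, since the experiments were fitted apart.

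ATP5MC1 read 969, 1032 and 1047 with A2 and 950, 1038 and 1082 with A3, below the 1148, 1260 and 1278 of A1. Its changes of -0.27 (95% interval -0.51 to -0.03, adjusted p = 0.0799) and -0.26 (-0.50 to -0.02, adjusted p = 0.0919) did not pass, whereas A2 against U did (-0.31 ± 0.11, adjusted p = 0.0441). NDUFS6 was lower than in U with A2 (-0.47 ± 0.11) and with A3 (-0.46 ± 0.11). The third member lower with A2 against U was ATP5F1D (-0.32, adjusted p = 0.0366).

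The compounds were given at matched dose and time, and 6 pairs among A1, A2, A3 and U were compared, each adjusted over all 8594 genes. A3 against A2 gave 0 member calls by limma, beside 0.151% of all genes, with 3 members at an unadjusted p under 0.05. Their differences were 0.31 for NDUFA13 (95% interval 0.09 to 0.54), 0.25 for COX7C (0.02 to 0.48) and -0.30 for NDUFB11 (-0.59 to -0.00). The largest difference was 0.32 for COX6A2 (-0.10 to 0.74), and that of SDHA was -0.13 (-0.47 to 0.22). A1 against U gave 0 member calls, beside 0.0349% of all genes, with 6 members at an unadjusted p under 0.05 and the largest difference at NDUFA1 (0.39, 0.14 to 0.65). These intervals leave room for differences of the size of many called changes, so they do not show that the compounds act alike. The ACTB ratio was 1.05 ± 0.026 with A2, 1.06 ± 0.15 with A3, 1.33 ± 0.069 with A1 and 1.18 ± 0.12 in U. With it as a covariate 5 members were called against A1 with A2 and 5 with A3. The shares of all genes called in that fit are not given here. The ratio ran from 1.02 to 1.07 with A2, 0.917 to 1.22 with A3 and 1.26 to 1.4 with A1. Ratio and inhibitor thus cannot be told apart against A1.

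Members higher both with the hairpin average and with A2 and A3 against A1 numbered 7: NDUFA13, NDUFB7, NDUFS3, SDHA, SDHC, UQCRC1 and ATP5PD. These are 22.6% of the 31 that rose with the hairpin and 70% of the 10 that rose with both inhibitors. Over all genes tested in both experiments the overlap was 29.3% of those that rose with the hairpin and 57.8% of those that rose with both inhibitors. The difference between members and other genes was not tested.

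**Figure D4:**
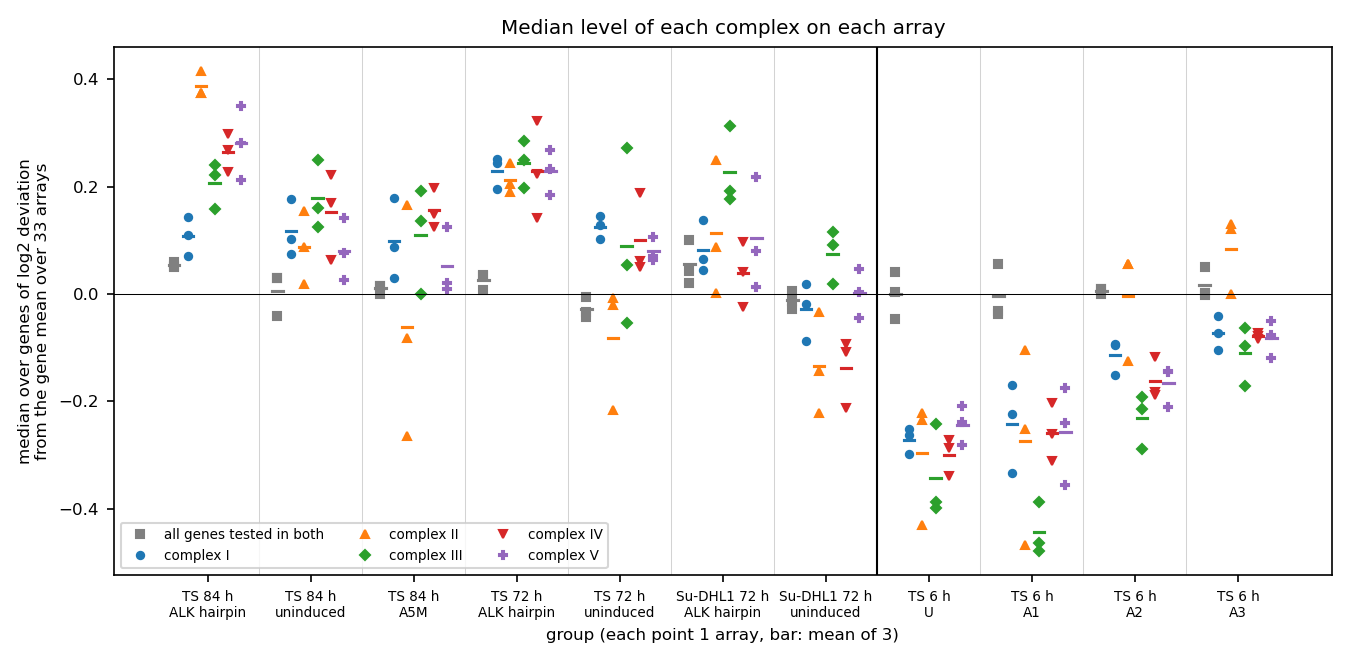
Median level of each complex on each array (points, with the mean of 3 as a bar), as the median over its genes of log2(signal + 11) minus the gene's mean over 33 arrays, with all 8473 genes tested with the same probe set in both experiments in grey. The black line separates the experiments. All genes stay near 0, complexes II and V stand highest in TS cells with the ALK hairpin at 84 h, and every complex is low in U and A1.

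Taken as a median over its genes on each array, complex II stood at 0.39 ± 0.02 (SD, n = 3) in A5-induced TS cells at 84 h, against 0.09 ± 0.07 uninduced and -0.06 ± 0.22 with A5M. Complex V stood at 0.28 ± 0.07 against 0.08 ± 0.06 and 0.05 ± 0.06, and complex IV at 0.26 ± 0.04 against 0.15 ± 0.08 and 0.16 ± 0.04. Complex I, in which rises and falls met, stood at 0.11 ± 0.04 against 0.12 ± 0.05 and 0.10 ± 0.08, and complex III at 0.21 ± 0.04 against 0.18 ± 0.06 and 0.11 ± 0.10. At 72 h in TS, the 5 medians with A5 lay between 0.21 and 0.24, and without it between -0.08 and 0.13. In Su-DHL1 they lay between 0.04 and 0.23 with A5 and between -0.14 and 0.07 without. In the 6 h experiment, the 5 medians were -0.34 to -0.24 in U, -0.44 to -0.24 with A1, -0.23 to -0.00 with A2 and -0.11 to 0.08 with A3. Complex III was the lowest of the 5 in each of these 4 groups. The members as a whole stood at -0.28 in U and -0.25 with A1, below every group of the hairpin experiment, but the experiments differ in cells' handling and time and cannot be compared as a treatment. These medians are descriptions and were not tested.

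Promoters of the members were taken from RefSeq (GRCh38.p14) as windows of 250 bases before to 50 after each start. They were available for 57 of the 66 genes, 9 of them with several windows. Each window was searched on both strands for 4 letter patterns: GCGCANGCG (NRF1), CCGGAAG (ETS factors such as GABP), AAGATGGC (YY1) and CACGTG (the E-box of MYC and USF factors). A gene was counted where any of its windows held the letters. NRF1 letters were in 35.1% of members and 12.5% of 15842 protein-coding genes, ETS letters in 31.6% and 16.5%, YY1 letters in 19.3% and 4.66%, and the E-box in 10.5% and 10.9%. Over all 27305 genes of the table the shares were 9.02%, 12.2%, 3.52% and 8.77%. Among the members, ETS letters were in 14 of 28 that rose with the hairpin, 0 of 6 that fell and 4 of 23 not called. NRF1 letters were in 9 of 28, 2 of 6 and 9 of 23. YY1 letters were in 4 of 28, 3 of 6 and 4 of 23, and the E-box in 1 of 28, 1 of 6 and 4 of 23. COX5B is counted here with those that rose and NDUFA6 with those that fell, although the direction of each depends on the probe set. A match is a description of the letters, and no test was made of these counts.

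Shown are the 150 bases before the start of the members with the largest called changes in the hairpin average among those with 1 window, 4 that rose and then 4 that fell. They let the letters of genes called in opposite directions be read side by side, though the direction of NDUFA6 depends on the probe set. Capitals mark any of the 4 patterns on either strand.
NDUFB1 (chr14:92121707-92121856, minus strand): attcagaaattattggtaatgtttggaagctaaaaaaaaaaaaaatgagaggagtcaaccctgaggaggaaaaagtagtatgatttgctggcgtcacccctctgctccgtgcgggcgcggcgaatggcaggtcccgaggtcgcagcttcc
NDUFA3 (chr19:54102705-54102854, plus strand): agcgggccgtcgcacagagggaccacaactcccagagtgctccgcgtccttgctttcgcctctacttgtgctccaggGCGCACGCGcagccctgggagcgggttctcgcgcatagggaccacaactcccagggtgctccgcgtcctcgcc
NDUFA1 (chrX:119871682-119871831, plus strand): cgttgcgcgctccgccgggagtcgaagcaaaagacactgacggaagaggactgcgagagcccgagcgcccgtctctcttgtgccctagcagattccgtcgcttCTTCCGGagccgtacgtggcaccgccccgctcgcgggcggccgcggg
UQCRC1 (chr3:48609647-48609796, minus strand): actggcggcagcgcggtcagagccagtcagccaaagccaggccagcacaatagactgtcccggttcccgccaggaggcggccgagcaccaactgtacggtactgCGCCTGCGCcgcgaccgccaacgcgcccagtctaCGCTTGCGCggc
ATP5MC1 (chr17:48892637-48892786, plus strand): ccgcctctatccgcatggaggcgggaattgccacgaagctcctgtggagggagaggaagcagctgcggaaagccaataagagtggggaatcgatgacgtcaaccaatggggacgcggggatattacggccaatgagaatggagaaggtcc
NDUFA6 (chr22:42090773-42090922, minus strand): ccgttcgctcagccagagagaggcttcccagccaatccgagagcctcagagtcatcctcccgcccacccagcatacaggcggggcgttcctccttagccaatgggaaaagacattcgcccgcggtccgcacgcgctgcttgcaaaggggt
NDUFA9 (chr12:4648964-4649113, plus strand): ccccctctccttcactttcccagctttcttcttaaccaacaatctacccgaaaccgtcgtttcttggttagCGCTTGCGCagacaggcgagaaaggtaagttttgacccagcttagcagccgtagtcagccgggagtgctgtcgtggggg
NDUFAB1 (chr16:23596317-23596466, minus strand): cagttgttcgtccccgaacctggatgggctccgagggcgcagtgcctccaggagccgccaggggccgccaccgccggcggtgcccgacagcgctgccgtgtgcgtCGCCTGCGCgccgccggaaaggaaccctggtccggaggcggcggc
Of those that rose, NDUFA3 and UQCRC1 carry NRF1 letters and NDUFA1 carries ETS letters in reverse, while NDUFB1 holds none, here or in its whole window. The windows of NDUFA3 and UQCRC1 also hold YY1 letters after the start, outside the stretch shown. Of those that fell, NDUFA9 and NDUFAB1 carry NRF1 letters, and the ATP5MC1 and NDUFA6 stretches hold none. After the start, outside the stretch shown, the ATP5MC1 window holds an E-box, and those of NDUFA6 and NDUFA9 hold YY1 letters. The promoter of SDHA, the member with the largest rise after the inhibitors, is shown because the NRF1 letters recur in it, on the same strand, 4 times in the 300-base window and 3 times in the stretch shown.
SDHA (chr5:218170-218319, plus strand): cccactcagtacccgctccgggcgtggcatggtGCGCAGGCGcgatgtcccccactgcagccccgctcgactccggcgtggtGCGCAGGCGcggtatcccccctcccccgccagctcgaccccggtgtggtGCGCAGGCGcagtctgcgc

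The counts for genes that build, feed or regulate the complexes can be read beside the shares of all genes, which were 29.1% higher and 21.7% lower in the hairpin average, 19.1% and 14.3% with A2 against A1, and 18.5% and 14.2% with A3 against A1. No difference between lists was tested. Of 28 assembly factors tested, which are proteins needed to put the complexes together but not part of them, 7 rose and 12 fell in the hairpin average, with a median of 0.04. SURF1 (0.77 ± 0.07) and COX15 (0.49 ± 0.08), both needed for complex IV, rose, and COA4 (-0.53 ± 0.07) and TMEM70 (-0.50 ± 0.05), needed for complexes IV and V, fell. TMEM70's other probe set had 0.15 and did not pass. With A2 against A1, 4 of the 28 rose and 10 fell (median -0.22), and with A3, 3 rose and 11 fell (median -0.28).

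Of 16 genes of the TCA cycle and pyruvate dehydrogenase, which supply NADH and succinate, 9 rose and 1 fell in the hairpin average, with a median of 0.21. IDH2 (0.76 ± 0.09), DLD (0.50 ± 0.09) and OGDH (0.48 ± 0.09) rose and IDH3A (-0.47 ± 0.07) fell. With A2 against A1, 4 rose and 2 fell (median 0.24), and with A3, 3 rose and 2 fell (median 0.17). PDK1, a kinase that switches pyruvate dehydrogenase off, fell by 1.01 on the log2 scale with the hairpin (adjusted p = 6.59e-05) and its relative PDK2 rose by 0.67 (adjusted p = 2.39e-05). Of 3 kinases tested, 1 rose and 1 fell.

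Among regulators of mitochondrial genes more fell than rose. Of 17 tested with the hairpin, 1 rose and 9 fell, with a median of -0.50. MYC fell by 1.53 ± 0.05, and read 310, 328 and 330 with A5 against 1164, 1364 and 1444 without in TS at 84 h. PPRC1, a PGC-1 relative, fell by 1.08 ± 0.08, the mitochondrial DNA helicase TWNK by 0.73 ± 0.08 and the RNA-binding protein SLIRP by 0.60 ± 0.06. With A2 against A1, 1 of 16 rose and 7 fell (median -0.34), and with A3, 1 rose and 8 fell (median -0.35). MYC read 2408, 2641 and 2723 with A1 and 7.6, 20.7 and 38.8 with A2.

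Of 15 electron carriers and ubiquinone-synthesis genes, 6 rose and 4 fell in the hairpin average (median 0.07). ETFB, which carries electrons from fatty acid oxidation, rose by 1.18 ± 0.08 and COQ4 by 1.09 ± 0.16, while COQ8A (-0.75 ± 0.08) and PDSS1 (-0.51 ± 0.06), both also needed for ubiquinone, fell. Of 8 uncoupling and redox genes, 6 rose, with a median of 0.38 over the list. UCP2 (0.87 ± 0.05), the glutathione peroxidase GPX4 (0.56 ± 0.07), the transhydrogenase NNT (0.51 ± 0.11) and TXNRD2 (0.41 ± 0.15) rose. Of 8 genes of ATP and phosphate exchange, 2 rose and 2 fell, with the phosphate carrier SLC25A3 (0.24 ± 0.05) and ATP5IF1 (0.23 ± 0.10) higher and SLC25A4 (-0.28 ± 0.07) and VDAC1 (-0.25 ± 0.07) lower.

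**Figure D5:**
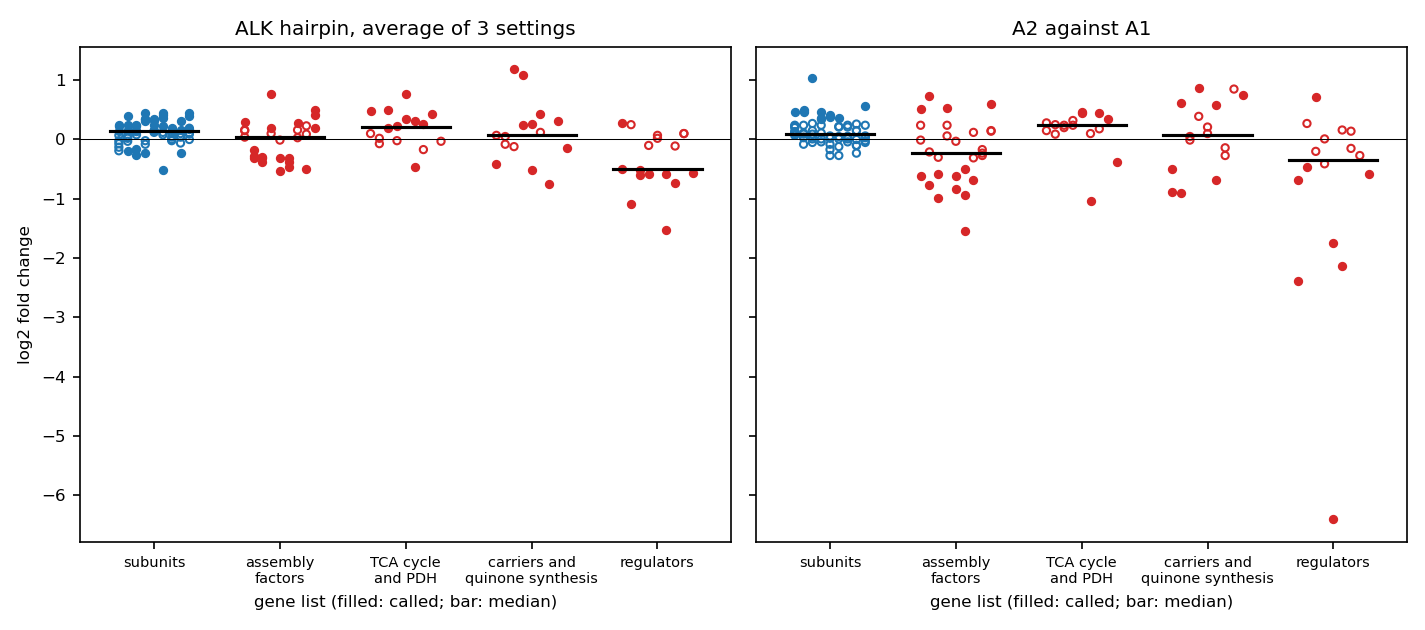
Log2 fold change of each tested gene (points, filled where called) in the subunits and in 4 related lists, with the ALK hairpin (left, average of 3 settings) and with A2 against A1 (right). The bar is the list's median. The probe sets plotted for the subunits stay between -0.51 and 0.45 on the left, and the regulators' median is -0.50 there and -0.34 on the right.

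Some markers of the lymphoma and of other cells moved with the same groups. Of 9 T-cell and ALCL markers tested, 1 rose and 4 fell in the hairpin average, with a median of 0.05 over the list. The falls were led by ALK, IL2RA and TNFRSF8. The summed signal of the 10 listed markers was 7664 to 8337 with A5 against 12759 to 13357 without in TS at 84 h. This sum holds ALK, the target of the hairpin, and weighs bright probe sets most, so it does not describe the list as a whole. The sum was 7909 to 8084 against 13264 to 14392 at 72 h in TS, 12355 to 13338 against 17025 to 18892 in Su-DHL1, and 5793 to 6339 with A2 or A3 against 14057 to 15602 in U or A1. Summed myeloid markers read 357 to 421 against 168 to 227 in TS at 84 h, 512 to 605 against 194 to 253 at 72 h, and 271 to 339 against 130 to 164 in Su-DHL1. In the 6 h experiment they read 95.2 to 118 with A2 or A3 against 144 to 199 in U or A1. Of these markers CSF1R rose with the hairpin (1.31 ± 0.09) and fell with A2 (-0.76 ± 0.16) and A3 (-0.65 ± 0.16) against A1, while LYZ and CD14 stayed below the 40th percentile on all arrays. Of the 2 epithelial markers tested KRT18 rose (0.72 ± 0.17), with EPCAM, KRT19 and CDH1 below that level on all arrays. Of the 3 B-cell markers tested, MS4A1 had the largest change, -0.19 (adjusted p = 0.452), and did not pass. Summed B-cell markers read 89.8 to 212 and summed epithelial markers 65.9 to 368 over the groups of the hairpin experiment. The part of these markers in the subunit changes was not tested. In bulk RNA, fewer cells of a type and less RNA per cell cannot be told apart.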

How the data were processed

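The deposited values are MAS5 signal intensities on a linear scale, per the submitters' processing notes, with the software's version and settings not given in the sources used here. Each array was already scaled by the authors to the same 2% trimmed mean, as the values show. Of 22283 probe sets, 68 controls were left out. Of the other 22215, 19065 have 1 gene symbol in the platform annotation, 1043 several and 2107 none.

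Per experiment, a probe set was kept where its signal reached the array's 40th percentile on 3 or more arrays, and each gene took its kept probe set of highest mean. After adding a pseudocount of 11, log2 values were fitted by group in limma 3.58.1 (R 4.3.3) with a trended variance prior, separately for the 21 hairpin and the 12 inhibitor arrays, and tested on simulated data. The number of arrays limits the precision. Genes named are the called members with the largest changes per complex and comparison, up to 4 per related list, and members whose probe sets disagree. SDHAP1 with SDHAP2, and single members given for contrast, were chosen after their values were seen. The members and lists were chosen with earlier results of these data known. Alternatives changed the pseudocount, filter, normalization, probe set, arrays, replicate block and RNA-quality covariate.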

Additional observations from a re-analysis of the deposited data

Results flagged for a closer look

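No subunit stood out by a different response between lines or times, but 6 genes of the related and marker lists did. Between Su-DHL1 and TS at 72 h, the response of COQ8A, a kinase-like protein of ubiquinone synthesis, differed by 1.02 on the log2 scale (-0.21 against -1.23, limma adjusted p for the difference = 0.0042). That of GZMB differed by 1.23 (-0.35 against -1.58, adjusted p = 2.05e-06), that of IL2RA by 0.90 (-1.84 against -2.74, adjusted p = 0.0027) and that of TNFRSF8 by 0.73 (-1.11 against -1.84, adjusted p = 0.00104). UCP2, an inner-membrane carrier, rose in both lines and differed by 0.73 (1.29 in Su-DHL1 against 0.56 in TS, adjusted p = 0.00134). In TS, the fall of MYC differed by -0.54 between 84 h (-2.00) and 72 h (-1.45), with an adjusted p of 0.0366.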

How the results depend on the processing

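Besides leaving out arrays, 3 settings moved counts of members called by over 1.5 times. With the ACTB ratio as a covariate they were 14 in TS at 84 h (29 in the reported fit), 5 in TS at 72 h (13), 20 in the average (37), 7 between the uninduced lines (17), 5 for A2 against A1 (11) and 5 for A3 against A1 (14). Quantile normalization gave 22 in TS at 72 h and 25 in Su-DHL1 (14). With only the arrays compared, TS at 72 h gave 23, A5M against uninduced cells 0 (3) and the difference between lines 1 (0). The cause of these moves was not tested, and the shares of all genes called in these settings are not given here. Leaving out 1 array gave 24 to 27 calls in TS at 84 h, 10 to 13 at 72 h, 6 to 15 in Su-DHL1, 34 to 39 in the average, 26 to 31 against A5M and 2 to 4 for A5M against uninduced cells. It gave 11 to 15 between the uninduced lines, 7 to 12 for A2 against A1, 11 to 13 for A3 against A1, 9 to 14 for A2 against U and 14 to 19 for A3 against U. The lowest counts in Su-DHL1, between the uninduced lines, for A2 against A1 and for A2 against U were also under the reported count by over 1.5 times. The 4 counts of 0 stayed 0 in these. Using probe sets without an _x_at or _s_at suffix first turned NDUFA6 (0.12 in the average, 0.04 at 84 h, 0.06 against A5M), COX5B (-0.44), NDUFA2 (-0.02 for A2 against U) and TMEM70 (0.15). Over 127 results for single genes and 2600 alternatives, 2466 kept direction and call, 127 lost the call, 1 gained it and 6 turned. Groups share replicate numbers, but same-numbered arrays did not deviate together (correlations of -0.206 to 0.13), so the numbers do not pair them. The replicate block gave 37 calls in the average, 15 in Su-DHL1, 29 against A5M, 15 for A2 against U and 19 for A3 against U, and moved no count by over 1.5 times. Dim probe sets, such as those of COX7A1 and COX6A2, limit what can be measured for the muscle forms.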
